A study of Mus musculus with 425 samples.

Results

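The 4-cell embryos described here came from FVB/NJ donor eggs fertilized with cauda sperm of males of the Defb41-iCre line. The embryos called cKO plus control RNA had fathers with both Dgcr8 alleles floxed (Dgcr8fl/fl; Defb41-iCre) and were labelled as microinjected with a control RNA. The embryos called control had sibling fathers with 1 floxed allele (Dgcr8+/fl; Defb41-iCre) and carry no injection label. The father's genotype and the injection therefore cannot be told apart in this comparison. By column name, 23 cKO plus control RNA embryos were set against 30 control embryos, 53 of the 313 embryos and of 425 samples in the series. Each group was spread over 4 numbered embryo sets, with 8, 7, 4 and 4 cKO plus control RNA embryos and 8, 8, 8 and 6 control embryos. A further 21 4-cell embryos of cKO fathers, injected with miRNA isolated from epididymosomes of the cauda, are given beside them as levels. All fathers carried the Cre, so both groups share it. How many fathers or cultures a set held is not stated, so p-values measure the spread between embryos.

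Dgcr8 binds primary miRNA transcripts in the nucleus and positions the nuclease Drosha that cuts them, and Defb41-iCre is active in epithelium of the epididymis, where sperm mature after leaving the testis. The embryo itself was not the site of the deletion. Sperm take up small RNA from epididymal vesicles called epididymosomes. By the 4-cell stage a mouse embryo has cleared many maternal transcripts and transcribes its own genome, and it has not yet compacted or set apart trophectoderm and inner cell mass.

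The sperm small RNA libraries of the same line give the levels of chosen miRNA loci before fertilization. They came from 8 cKO and 8 control samples, held 8204829 to 15993045 reads in cKO and 6128908 to 10743331 reads in control libraries, and are given in RPM (reads scaled to an equal total per library) as a description. The Mir34c locus lay between 15.5 and 410 RPM with a median of 29.0 in cKO sperm, against 451 to 1859 with a median of 1006 in control sperm. Mir34b had a median of 16.3 in cKO and 232 in control sperm, and Mir449a 13.6 in cKO and 123 in control sperm. The ranges of Mir34c did not overlap, whereas those of Mir34b and Mir449a did. How many of all loci lack overlap was not counted. The abundant Mir10b had a median of 64353 (range 4396 to 174503) in cKO and 41541 (3477 to 98166) in control sperm, and Mirlet7f-1 had 1113 (486 to 18497) in cKO and 842 (542 to 5495) in control sperm. These ranges overlapped widely. Each range runs over all 8 libraries of a group, and any spread between batches of these libraries was not tested. Reads were assigned to loci, so arms are not separated.

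The mature sequences of the 5p arms, from RefSeq (GRCm38.p6), show which of these miRNAs share a seed and can pair with the same sites. Capitals mark the seed, bases 2 to 8 from the 5′ end.
mmu-miR-34b-5p: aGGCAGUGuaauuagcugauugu
mmu-miR-449a-5p: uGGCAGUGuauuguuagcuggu
mmu-miR-10a-5p: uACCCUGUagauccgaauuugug
mmu-miR-10b-5p: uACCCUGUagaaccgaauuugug
mmu-let-7b-5p: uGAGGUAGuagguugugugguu
mmu-let-7f-5p: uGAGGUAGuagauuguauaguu
The miR-34b and miR-449a arms share 1 seed, as do the pair of miR-10 arms and the pair of let-7 arms. The miR-34b arm lies at chr9:51103610-51103632 on the minus strand and the miR-10b arm at chr2:74726074-74726096 on the plus strand.

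The libraries carried the RNA of early embryos. Dppa3, a maternal and early embryonic factor, had a median of 13870 TPM in cKO plus control RNA embryos and 13546 TPM in control embryos. TPM is a share of each embryo's own transcripts after correction for length, so a difference in total RNA or in cell number per embryo cannot be seen. Pou5f1, a pluripotency factor, had a median of 268 TPM in cKO plus control RNA embryos and 287 TPM in control embryos. Sox2 was at 0 in 22 of 23 cKO plus control RNA embryos and 29 of 30 control embryos, and Cdx2 was at 0 in 20 and 25 of them. The summed level of 10 markers of cumulus or granulosa cells was at most 0.43 TPM in any cKO plus control RNA embryo and at most 3.16 TPM in any control embryo. Among 8 sperm markers, Tnp1, Akap4, Smcp and Spem1 were at 0 in every embryo. Prm2, a protamine that packs sperm DNA, was the only sperm marker in enough embryos to be tested. It was at 1 TPM or more in 4 of 23 cKO plus control RNA embryos and 11 of 30 control embryos, and its difference of -0.75 ± 0.41 (SE) had an unadjusted p of 0.069.

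Library quality varied between embryos. A median of 8664 genes reached 1 TPM in cKO plus control RNA embryos (lowest 5978, highest 9570) and of 8362 genes in control embryos (lowest 5894, highest 9664). The means, 8614 ± 747 (SD, n = 23) and 8228 ± 946 (SD, n = 30), differed by 386 genes with p = 0.115 in a two-sided permutation test with 100000 resamples. Of the 53 embryos, 4 lay more than 3 median absolute deviations below the median, 1 of them cKO plus control RNA and 3 of them control. Read depth cannot be recovered from TPM, so its part in these counts was not tested.

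**Figure D1:**
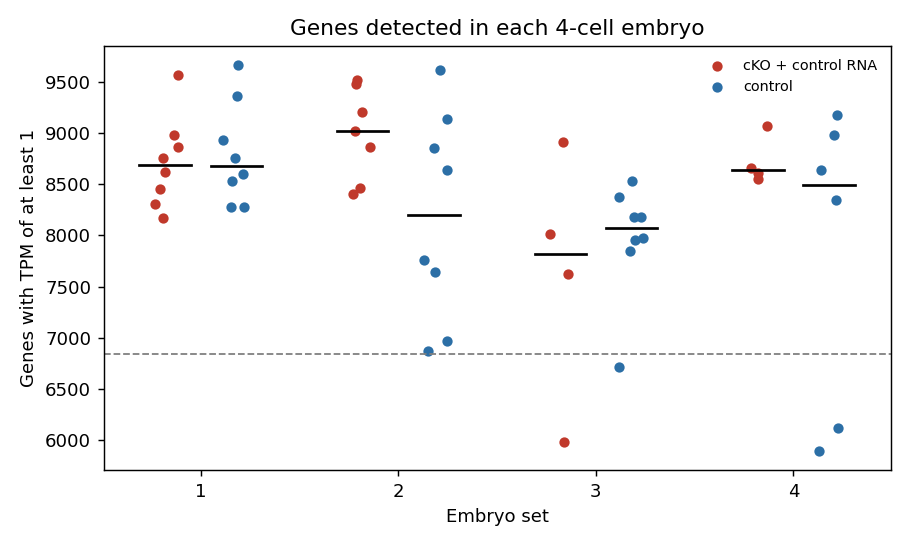
Genes at 1 TPM or more (vertical axis) in each 4-cell embryo, by embryo set (horizontal axis). Each point is 1 embryo, short lines are medians, and the dashed line at 6845 genes is 3 median absolute deviations below the median. The groups overlap in every set, and 1 cKO + control RNA and 3 control embryos lie under the line.

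Some libraries were nearly alike. Embryos 2 and 3 of set 2 of the cKO plus control RNA group had a correlation of 0.993 over log2(TPM+1), whereas the next highest among all 4-cell embryos of this line was 0.924 and the median 0.850. In morulae 6 pairs lay between 0.988 and 0.992, with the next at 0.972, and 1 of these pairs joined a cKO plus control RNA morula with a control morula. TPM do not show whether such a pair is 1 library read again or separate libraries. Results are given with every library, and the counts also with each near-identical pair averaged and the pair across groups left out.

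No gene passed the test between cKO plus control RNA and control 4-cell embryos. Of 9894 genes with at least 1 TPM in 14 or more of the 53 embryos, limma's moderated test on log2(TPM+1) called 0 (0%) at a Benjamini-Hochberg adjusted p under 0.05, and the smallest adjusted p was 0.488. At an unadjusted p under 0.05 there were 856 genes (8.65%), 710 with a higher mean (7.18%) and 146 with a lower mean (1.48%) in cKO plus control RNA embryos. With the near-identical pair averaged, the counts were 0 called and 689 higher and 133 lower. For each of the 9894 genes the ranges of the groups overlapped.

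The excess of higher genes moved with scaling and with the number of genes detected. The median difference over all genes was 0.16 on the log2(TPM+1) scale with TPM as deposited, and 0.01 after quantile normalization, where 376 genes were higher (3.8%) and 365 lower (3.69%) at an unadjusted p under 0.05. Scaling by median ratios gave 505 higher and 287 lower. With the number of genes detected as a covariate, 282 were higher (2.85%) and 230 lower (2.32%). The median over all genes was 0.03 in set 1, 0.29 in set 2, -0.18 in set 3 and 0.34 in set 4, so set 3 ran the other way. A set difference is taken between sets of the same number, and the labels do not say that these belong together. Without set 3 there were 1477 higher and 215 lower genes, and without set 2 there were 286 higher and 125 lower. Differences below are read against the shift of 0.16.

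The spread between embryos set how much could be seen. The median half-width of a gene's 95% interval was 0.58, and 6555 genes (66.3%) had an interval inside a log2 difference of -1 to 1. For the 1631 genes with a mean over 100 TPM the median half-width was 0.30 and 92.3% had such an interval. For the 2114 genes between 10 and 30 TPM it was 0.68, and 49.2% had one. An interval inside 1.5-fold in both directions was reached by 2231 genes (22.5%). The SD between embryos had a median over genes of 0.97 in the cKO plus control RNA group and 1.08 in the control group, and 34.4% of genes had the larger SD in cKO plus control RNA embryos.

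**Figure D2:**
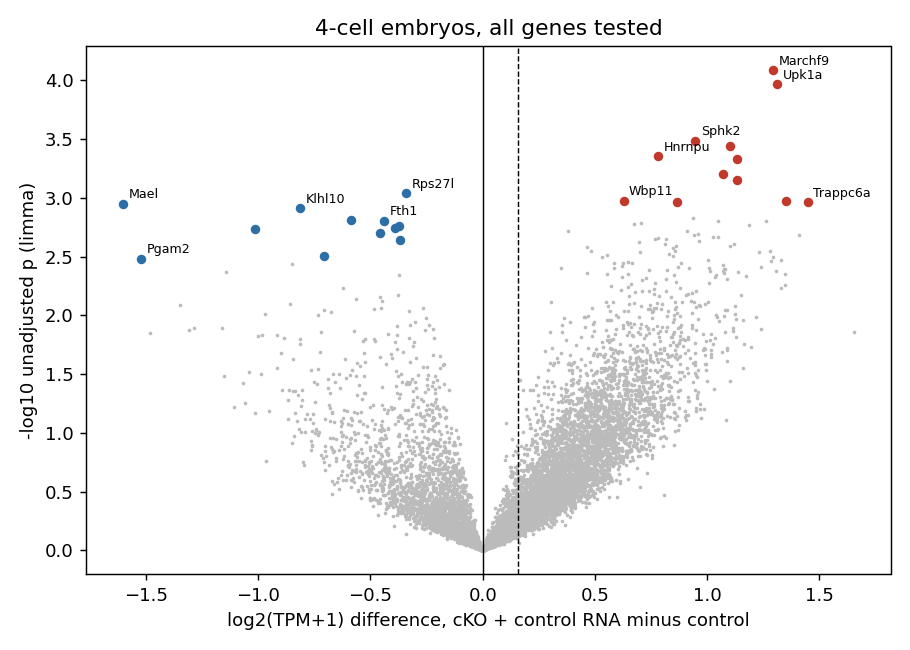
Difference in mean log2(TPM+1), cKO + control RNA minus control (horizontal axis), against -log10 of the unadjusted p (vertical axis) for 9894 genes. Coloured points are the 12 genes with the smallest p in each direction, and the dashed line is the median difference of 0.16. More points lie to the right, and no gene has an adjusted p under 0.05.

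The genes below were chosen after their values were seen, as those with the smallest unadjusted p, and no adjusted p among them was under 0.488 with limma. Hnrnpu, a nuclear RNA-binding scaffold protein, ranged from 56.4 to 328 TPM with a median of 98.8 in cKO plus control RNA embryos, against 19.3 to 217 TPM with a median of 70.2 in control embryos. The upper end of the cKO plus control RNA group lay above every control embryo, and the lower parts overlapped. Its means were 147 ± 92.5 TPM (SD, n = 23) in cKO plus control RNA, 81.6 ± 38.7 TPM (n = 21) in cKO plus miRNA and 79.4 ± 40.4 TPM (n = 30) in control embryos. The difference of 0.78 ± 0.21 (SE, unadjusted p = 4.425e-04) was positive in 3 of 4 sets, with -0.16 in set 3.

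Marchf9, a membrane-bound ubiquitin ligase, had the smallest p of all genes, 8.13e-05. It averaged 5.59 ± 3.80 TPM in cKO plus control RNA embryos, 4.2 ± 4.46 TPM in cKO plus miRNA embryos and 1.88 ± 2.40 TPM in control embryos. Its difference of 1.29 (95% interval 0.68 to 1.90) was positive in all 4 sets. Upk1a, a uroplakin, was at 0 in 10 of 23 cKO plus control RNA embryos, 16 of 21 cKO plus miRNA embryos and 24 of 30 control embryos, and its highest values were 17.6, 17.1 and 5.05 TPM in the same order. Sphk2, which makes sphingosine-1-phosphate, had medians of 15.7 TPM in cKO plus control RNA and 7.02 TPM in control embryos. Trappc6a, a subunit of a vesicle tethering complex, averaged 18.2 ± 13.1 TPM in cKO plus control RNA, 18.1 ± 15.8 TPM in cKO plus miRNA and 8.10 ± 8.45 TPM in control embryos, so here both groups of cKO fathers lay above the control. Ercc2, a helicase of the transcription factor TFIIH and of DNA repair, averaged 25.01 ± 15.3 TPM in cKO plus control RNA, 14.1 ± 11.8 TPM in cKO plus miRNA and 12.7 ± 13.2 TPM in control embryos. The cKO plus miRNA levels are given side by side only, since a comparison with them would share embryos with the one that picked the genes.

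Of genes with a lower mean, Mael, a factor of the piRNA pathway in germ cells, had a median of 1.16 TPM (lowest 0, highest 26.8) in cKO plus control RNA embryos, against 10.6 TPM (lowest 0, highest 77.1) in control embryos. It was at 0 in 7 of 23 cKO plus control RNA embryos and 3 of 30 control embryos, and its difference was -1.60 ± 0.47 (SE, unadjusted p = 0.0011). Klhl10, an adaptor of a ubiquitin ligase of spermatids, averaged 102 ± 72.8 TPM in cKO plus control RNA, 148 ± 79.2 TPM in cKO plus miRNA and 151 ± 63.3 TPM in control embryos. The ranges of both genes overlapped between groups. Hmgn1, a nucleosome-binding protein, averaged 518 ± 123 TPM in cKO plus control RNA, 742 ± 268 TPM in cKO plus miRNA and 684 ± 217 TPM in control embryos, with set differences between -0.33 and -0.46. Fth1, the heavy chain of the iron store ferritin, averaged 165 ± 50.8 TPM in cKO plus control RNA, 243 ± 124 TPM in cKO plus miRNA and 226 ± 81.4 TPM in control embryos. Eif4ebp1, an inhibitor of cap-dependent translation, averaged 215 ± 95.4 TPM in cKO plus control RNA, 304 ± 196 TPM in cKO plus miRNA and 342 ± 174 TPM in control embryos. Of the 12 genes with the smallest p in each direction, 8 higher and 6 lower genes had the same sign in all 4 sets.

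**Figure D3:**
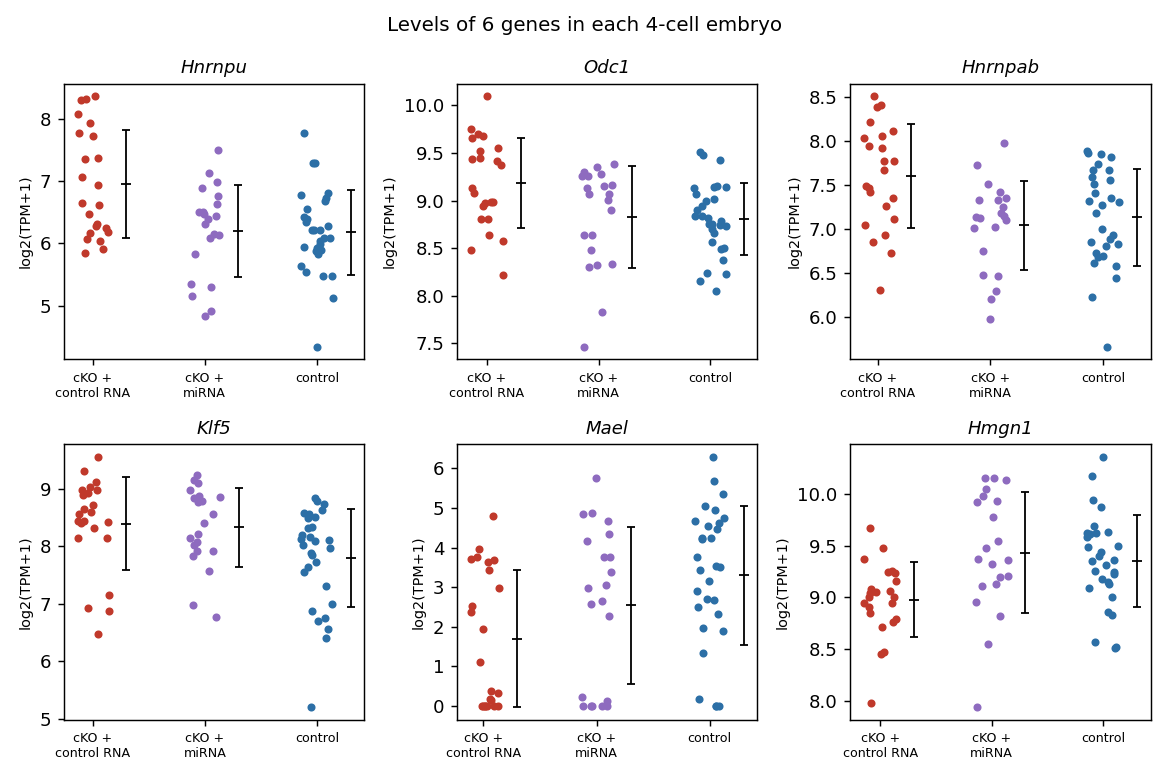
log2(TPM+1) (vertical axis) of 6 genes in each 4-cell embryo of 3 groups: cKO + control RNA (23), cKO + miRNA (21) and control (30). Points are embryos and bars are mean and SD. Hnrnpu, Odc1, Hnrnpab and Klf5 have their highest mean, and Mael and Hmgn1 their lowest mean, in cKO + control RNA embryos, with overlap in every panel.

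Among the genes of miRNA processing and silencing, 20 of 22 were tested, 0 were called, 2 had a higher and 0 a lower mean at an unadjusted p under 0.05, and the list's median was 0.23 against 0.16 over all genes. After quantile normalization the list's median was 0.00. Dgcr8 itself averaged 11.4 ± 7.49 TPM in cKO plus control RNA embryos and 8.93 ± 8.68 TPM in control embryos, a difference of 0.43 (95% interval -0.33 to 1.19, unadjusted p = 0.26). Ago2, the Argonaute that can cut its target, averaged 15.2 ± 6.95 TPM in cKO plus control RNA, 8.95 ± 5.83 TPM in cKO plus miRNA and 10.6 ± 7.39 TPM in control embryos, with an unadjusted p of 0.013. Ddx6, a helicase of translational repression, averaged 2.71 ± 1.77 TPM in cKO plus control RNA and 1.79 ± 1.99 TPM in control embryos. Drosha differed by 0.06 and Dicer1, which makes the mature duplex, by 0.30, and both intervals held 0. Of 29 tested genes of mRNA decay and deadenylation, 5 were higher and 0 lower at an unadjusted p under 0.05, beside 7.18% and 1.48% of all genes, with a median of 0.22. After quantile normalization 2 were higher and 2 lower, beside 3.8% and 3.69% of all genes, with a median of 0.08. With the number of genes detected as a covariate 1 was higher and 0 lower, beside 2.85% and 2.32%, with a median of 0.00. The 5 genes included Upf1, the helicase of nonsense-mediated decay, with 0.71 ± 0.24 (SE).

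RNA-binding and splicing proteins gave mixed values. Of 26 hnRNP genes, 4 were higher and 0 lower at an unadjusted p under 0.05, which is 4 of 26 beside 7.18% of all genes, and the list's median was 0.18. It was 0.12 after quantile normalization and 0.00 with the number of genes detected as a covariate. Hnrnpab averaged 208 ± 79.9 TPM in cKO plus control RNA, 138 ± 46.3 TPM in cKO plus miRNA and 149 ± 52.1 TPM in control embryos, with a difference of 0.47 ± 0.16 (SE) that was positive in all 4 sets. Hnrnpul1 differed by 1.05 ± 0.33 and Hnrnpa3 by 0.53 ± 0.17. Of 22 SR proteins and their kin, Srsf4 and Son had the higher and Srsf7 the lower mean at that level. Srsf7 averaged 278 ± 71.9 TPM in cKO plus control RNA, 341 ± 115 TPM in cKO plus miRNA and 365 ± 116 TPM in control embryos. Of 36 core spliceosome genes 4 were higher and 3 lower, beside 7.18% and 1.48% of all genes, with a median of -0.04. In the 40 genes of translation initiation and elongation 6 were higher and 1 lower, beside the same shares of all genes. Their median was 0.16, the same as over all genes. Eif3b, a scaffold subunit of the initiation factor eIF3, averaged 73.2 ± 44.3 TPM in cKO plus control RNA, 41.5 ± 19.8 TPM in cKO plus miRNA and 45.7 ± 17.7 TPM in control embryos.

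The lists of oxidative phosphorylation and of the proteasome had negative medians, whereas the 20 genes of glycolysis and glucose uptake had 0.18 (1 higher, 1 lower) and the 27 genes of lysosome and autophagy 0.08 (1 higher, 0 lower). Of 79 nuclear genes of oxidative phosphorylation, 0 were higher and 9 lower at an unadjusted p under 0.05, beside 7.18% and 1.48% of all genes. Of these, 65 of 79 had a negative difference, whereas 3072 of the 9894 genes had one. The median was -0.13, and it was -0.14 after quantile normalization, -0.24 with median-ratio scaling and -0.07 with the number of genes detected as a covariate. It was negative in each set, between -0.01 and -0.15. Uqcr10, a subunit of complex III, averaged 687 ± 244 TPM in cKO plus control RNA, 837 ± 359 TPM in cKO plus miRNA and 873 ± 258 TPM in control embryos. Ndufb2, of complex I, averaged 376 ± 148 TPM in cKO plus control RNA, 424 ± 146 TPM in cKO plus miRNA and 512 ± 206 TPM in control embryos. None of these genes was called.

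The 86 cytosolic ribosomal protein genes had a median of -0.06, and -0.02 after quantile normalization. With TPM as deposited 0 were higher and 7 lower at an unadjusted p under 0.05, beside 7.18% and 1.48% of all genes. Rps27l, a relative of the ribosomal protein gene Rps27, averaged 1643 ± 513 TPM in cKO plus control RNA, 1948 ± 498 TPM in cKO plus miRNA and 2052 ± 497 TPM in control embryos. Ribosomal protein genes have many processed copies in the genome, and the authors' counting could split reads between them. The 77 mitochondrial ribosomal protein genes had a median of -0.06 with 1 higher and 2 lower. The 40 proteasome genes had -0.07 with 0 higher and 4 lower, beside the same shares of all genes.

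Genes of zygotic activation and of trophectoderm had medians above that of all genes, whereas maternal transcripts and pluripotency genes did not. Other lists lay above it too, such as primitive endoderm and FGF (0.30), imprinted genes (0.27) and cholesterol and fatty acid synthesis (0.24). For primitive endoderm and FGF it was 0.15 after quantile normalization. Of 25 tested genes of zygotic activation at the 2-cell stage, 5 were higher and 0 lower, beside 7.18% and 1.48% of all genes, with a median of 0.31 that was 0.16 after quantile normalization. The median was -0.28 in set 4, where that of all genes was 0.34. Sp110 averaged 594 ± 180 TPM in cKO plus control RNA, 498 ± 244 TPM in cKO plus miRNA and 485 ± 181 TPM in control embryos. Usp17lb, a deubiquitinase of a multigene family, had medians of 5.04 TPM in cKO plus control RNA, 1.13 TPM in cKO plus miRNA and 0.12 TPM in control embryos and highest values of 493, 123 and 273 TPM in the same order, and reads of its copies may have been split. Prmt6, an arginine methyltransferase, averaged 60.1 ± 29.8 TPM in cKO plus control RNA and 37.5 ± 19.8 TPM in control embryos. Of 17 tested trophectoderm genes 4 were higher and 0 lower, beside the same shares of all genes, with a median of 0.40 that was 0.22 after quantile normalization and 0.14 with genes detected as a covariate, and that was -0.40 in set 3. Tead4, the transcription factor that starts the trophectoderm programme, averaged 225 ± 68.7 TPM in cKO plus control RNA, 181 ± 58.0 TPM in cKO plus miRNA and 163 ± 51.7 TPM in control embryos. Klf5 averaged 379 ± 166 TPM in cKO plus control RNA, 353 ± 145 TPM in cKO plus miRNA and 254 ± 116 TPM in control embryos, with a difference of 0.60 (95% interval 0.15 to 1.04). Of the 17 trophectoderm genes 14 had a positive and 3 a negative difference, with -0.51 for Id2, -0.42 for Aqp3 and -0.03 for Krt18. The 21 tested pluripotency genes had a median of 0.10, with 2 higher (Klf17 and Klf2) and 0 lower. Gata3, a trophectoderm factor, was low throughout, at 0 in 4 of 23 cKO plus control RNA embryos, 12 of 21 cKO plus miRNA embryos and 16 of 30 control embryos.

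Of 30 maternal oocyte transcripts 1 was higher and 2 lower, beside 7.18% and 1.48% of all genes, with a median of 0.10. Oosp1, an oocyte-secreted protein gene, averaged 92.0 ± 73.5 TPM in cKO plus control RNA, 123 ± 71.5 TPM in cKO plus miRNA and 156 ± 100.3 TPM in control embryos, with negative differences in all 4 sets. Zar1, a regulator of maternal mRNA, had medians of 0.65 TPM in cKO plus control RNA and 6.41 TPM in control embryos. Its means were closer, 9.14 and 12.9 TPM in the same order. The higher gene was Mos, with a difference of 0.64 ± 0.30 (SE) and means of 2.35 and 0.72 TPM. Of the 30 differences 17 were positive and 13 negative. Since only the cKO plus control RNA embryos carry an injection label, genes of the interferon and cytosolic RNA response were set beside these. Only 12 of 32 were tested, and 0 were higher or lower at an unadjusted p under 0.05, where all genes gave 7.18% and 1.48%. Their median was 0.41, the highest of the lists with TPM as deposited and every embryo. It was 0.22 after quantile normalization, as for trophectoderm, and 0.23 without the 4 embryos with few genes, where trophectoderm had 0.39. Mavs, the adaptor of RNA sensors, differed by 0.77 ± 0.42 (SE) and Adar, which edits double-stranded RNA, by 0.45 ± 0.24, both with 95% intervals that hold 0. Of the 12 tested, 8 had a positive and 4 a negative difference. The negative ones were -0.42 for Ifitm2, -0.41 for Oasl2, -0.18 for Trim25 and -0.08 for Bst2. The 36 genes of mitosis and the anaphase-promoting complex had a median of 0.24 with 1 higher and 0 lower, and the 35 genes of DNA replication 0.22 with 0 higher and 0 lower. Lists of genes known as targets of miR-34 and miR-449 (15 tested, 1 higher, 0 lower) and of let-7 (23 tested, 0 higher, 1 lower) both had a median of 0.07, which was -0.10 for both after quantile normalization, and Mycn held the middle rank in each.

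**Figure D4:**
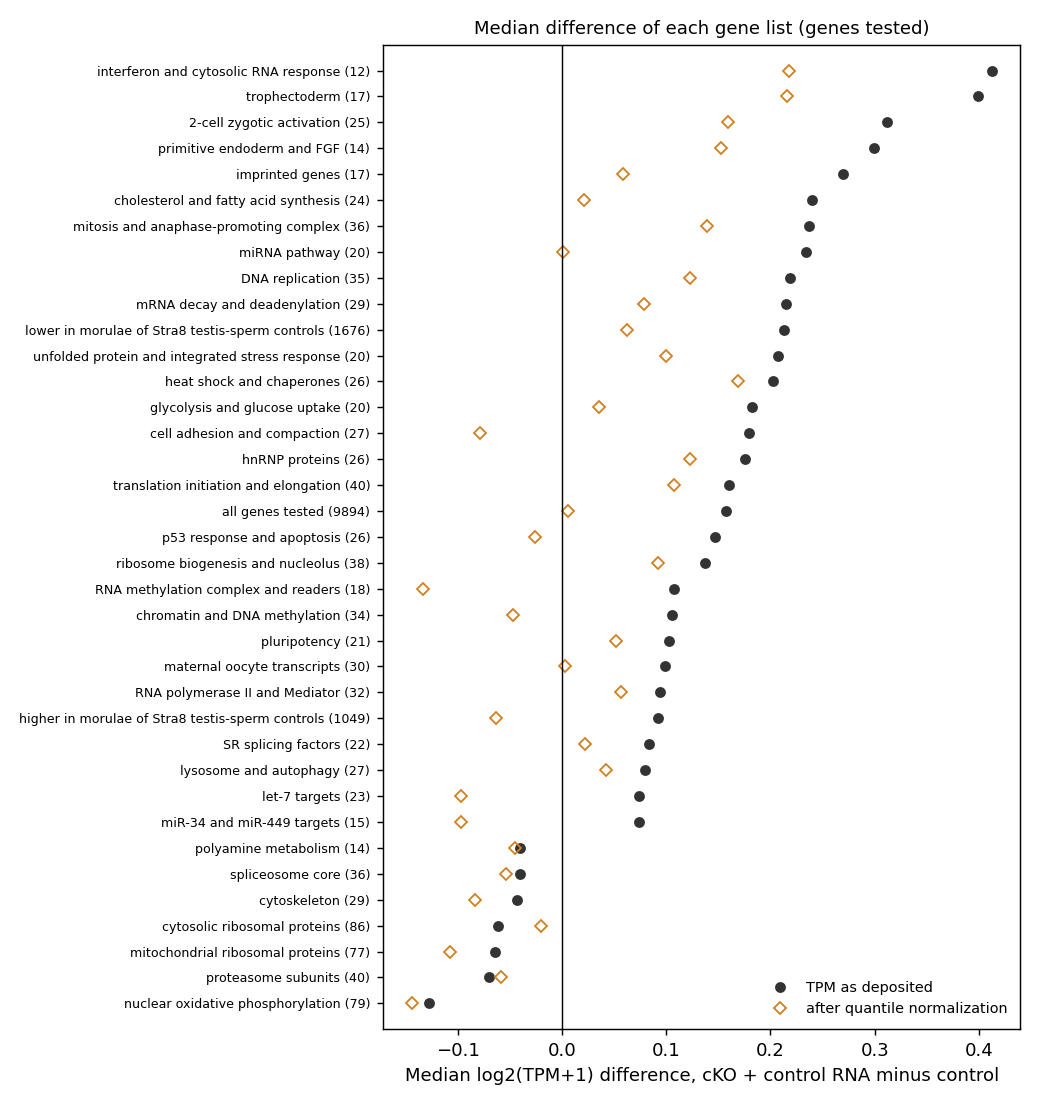
Median difference in log2(TPM+1), cKO + control RNA minus control (horizontal axis), of each gene list, with the number of genes tested in brackets. Filled points are TPM as deposited and open diamonds are values after quantile normalization. With TPM as deposited, oxidative phosphorylation has the lowest median, -0.13, and interferon and cytosolic RNA response the highest, 0.41, while the median over all genes moves from 0.16 to 0.01.

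In morulae of the same crosses the comparison did give calls, which allowed these genes to be looked up at the 4-cell stage in other embryos. Between 24 cKO plus control RNA and 26 control morulae, 43 of 11058 genes (0.389%) were called by limma, 26 higher and 17 lower. With near-identical libraries counted once 23 of 11104 were called, 20 higher and 3 lower, and 21 of the 23 were among the 43. Most of the 17 lower genes were thus called only in the fit with every library. At an unadjusted p under 0.05, 6.63% of morula genes were higher and 9.6% lower. Of the 26 genes higher in morulae 25 were tested at the 4-cell stage, and 22 had a positive difference there, 8 at an unadjusted p under 0.05, with a median of 0.37. Of all 9894 genes 6822 had a positive 4-cell difference and 7.18% were higher at that level. Of the 17 lower in morulae 14 were tested, 1 had a negative difference, and the median was 0.32. The 4-cell medians of both sets were thus positive, above the 0.16 of all genes.

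Odc1, the first enzyme of polyamine synthesis, ranged from 297 to 1093 TPM with a median of 559 in 4-cell cKO plus control RNA embryos and from 263 to 730 TPM with a median of 444 in 4-cell control embryos. The highest cKO plus control RNA embryos lay above every control embryo. Its means were 611 ± 196 TPM in cKO plus control RNA, 479 ± 148 TPM in cKO plus miRNA and 461 ± 120 TPM in control embryos, and the difference of 0.38 ± 0.12 (SE) had an unadjusted p of 0.0019. In morulae Odc1 averaged 366 ± 86.7 TPM in cKO plus control RNA and 247 ± 51.4 TPM in control embryos, a difference of 0.55 ± 0.10 with a limma adjusted p of 0.0017. Hnrnpab, given above at the 4-cell stage, averaged 124 ± 28.7 TPM in cKO plus control RNA and 81.4 ± 16.3 TPM in control morulae. Yrdc, an enzyme of tRNA modification, averaged 170 ± 110 TPM in 4-cell cKO plus control RNA, 89.4 ± 65.7 TPM in 4-cell cKO plus miRNA and 89.2 ± 64.9 TPM in 4-cell control embryos, with differences of 0.95 ± 0.37 at the 4-cell stage and 1.11 ± 0.27 in morulae. The limma adjusted p of Yrdc in morulae was 0.039, and 0.053 with near-identical libraries counted once. Ell2, a transcription elongation factor, differed by 0.56 ± 0.19 at the 4-cell stage and 0.62 ± 0.14 in morulae.

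For Srsf9, Srsf2 and Mcl1 the 4-cell interval held 0. Srsf9, a splicing factor with the smallest morula p, differed by 0.46 ± 0.28 (95% interval -0.10 to 1.02) at the 4-cell stage and 0.91 ± 0.13 in morulae, and the difference between stages of -0.45 had an interval of -1.07 to 0.18. Srsf2, another splicing factor, averaged 133 ± 77.7 TPM in 4-cell cKO plus control RNA, 78.9 ± 48.9 TPM in 4-cell cKO plus miRNA and 98.4 ± 74.2 TPM in 4-cell control embryos. Mcl1, which protects cells from apoptosis, differed by 0.19 ± 0.15 at the 4-cell stage and 0.67 ± 0.12 in morulae. Sdcbp, a scaffold protein of exosome formation, had opposite signs, with 1.03 ± 0.42 at the 4-cell stage and -0.69 ± 0.14 in morulae, and the test of the difference between stages had an unadjusted p of 2.91e-04 and a limma adjusted p of 0.30.

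**Figure D5:**
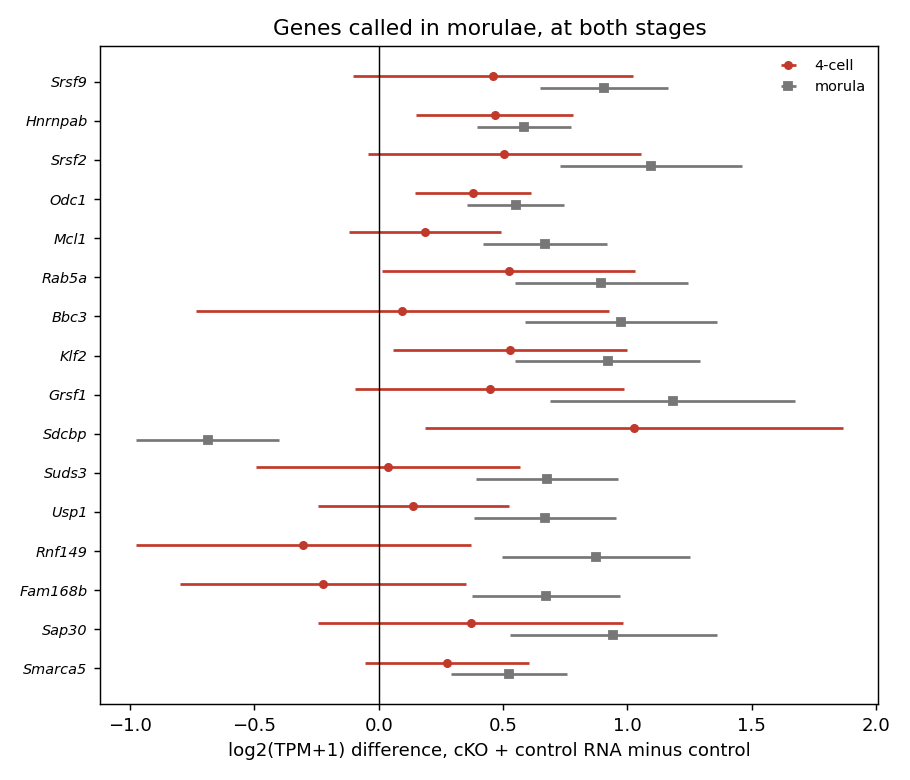
Difference in log2(TPM+1), cKO + control RNA minus control (horizontal axis), with 95% intervals, at the 4-cell stage (circles) and in morulae (squares) for the 16 genes with the smallest adjusted p in morulae that were tested at both stages. Odc1 and Hnrnpab lie close together at both stages, and Sdcbp lies on opposite sides of 0. The 4-cell intervals are wider.

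The test of the difference between the 4-cell and morula effects, over 10924 genes, called 1 (0.00915%), Nr2c1, an orphan nuclear receptor. It was at 0 in 9 of 23 cKO plus control RNA and 26 of 30 control 4-cell embryos, and averaged 1.74 ± 2.15 TPM in cKO plus control RNA and 0.23 ± 0.85 TPM in control embryos at that stage. In morulae it averaged 1.93 ± 1.16 TPM in cKO plus control RNA and 3.42 ± 2.02 TPM in control embryos. The 4-cell difference minus the morula difference was 1.48 ± 0.30 (SE, limma adjusted p = 0.027), and with near-identical libraries counted once the adjusted p was 0.057.

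A separate set of 4-cell embryos came from cauda sperm of the Stra8-iCre line, in which Dgcr8 is deleted in germ cells, with 15 cKO and 18 control embryos. Neither Stra8 group carries an injection label, whereas the Defb41 cKO plus control RNA embryos do. The line and the injection therefore cannot be told apart when these comparisons are set side by side. In these Stra8 embryos limma, with the batch code as a term, called 0 of 11416 genes (0%), with 732 at an unadjusted p under 0.05 (6.41%). A batch that held only cKO embryos adds nothing to the estimated difference when batch is a term. Of 9747 genes tested in both lines, 852 in the Defb41 and 635 in the Stra8 comparison had an unadjusted p under 0.05. Of these, 22 genes were shared with the same sign, which is 2.58% of the Defb41 and 3.46% of the Stra8 genes, and 34 were shared with opposite signs. In either sign these are 6.57% of the Defb41 genes, near the 6.51% of all genes tested in both that passed in the Stra8 comparison. The Stra8 differences of Hnrnpu, Odc1 and Hnrnpab were -0.13, -0.07 and 0.01. Against the Defb41 morulae, 84 genes were shared with the same sign, 10.2% of the 826 4-cell and 5.45% of the 1540 morula genes, and 58 with opposite signs. In either sign these are 17.2% of the 4-cell genes, near the 16.6% of all genes tested in both that passed in morulae.

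Stage genes were taken from the Stra8 line's testis sperm controls, in which 22 4-cell embryos and 27 morulae were compared. The 1676 tested genes that are lower in those morulae had a median 4-cell difference of 0.21 between Defb41 cKO plus control RNA and control embryos, with 155 higher and 18 lower at an unadjusted p under 0.05, where all genes gave 7.18% and 1.48%. The counts were 100 and 44 after quantile normalization, where all genes gave 3.8% and 3.69%. With the number of genes detected as a covariate they were 53 and 37, where all genes gave 2.85% and 2.32%. The 1049 genes that are higher in those morulae had a median of 0.09, with 41 higher and 31 lower. Here the balance turned over, with 22 higher and 60 lower after quantile normalization and 20 higher and 49 lower with the covariate. The shares of all genes under each are those just given. After quantile normalization the medians were 0.06 for the genes lower and -0.06 for the genes higher in morulae. In set 3 both medians were negative, -0.21 for the genes lower in morulae and -0.24 for the genes higher in morulae.

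Sites for the seeds were counted in the 3′UTR of 9076 of the 9894 genes (91.7%), using 1 coding transcript per gene of GENCODE M21. The searched letters, on the transcript strand, were CACTGCC for miR-34 and miR-449, ACAGGGT for miR-10 and CTACCTC for let-7. They occurred in 14.4%, 12.1% and 9.07% of the 3′UTRs. Genes with a miR-34 and miR-449 site had a median difference of 0.20 (1308 genes, 105 higher and 10 lower at an unadjusted p under 0.05), and genes without one had 0.15 (7768 genes, 554 higher and 127 lower). The genes with a site had a median 3′UTR of 1926 bases, against 732 bases without one. Among genes with 3′UTRs over 1424 bases, the medians were 0.21 with and 0.18 without a site, and among those up to 480 bases they were 0.07 and 0.07. Between these lengths they were 0.21 with and 0.20 without a site. For miR-10 the medians were 0.20 with and 0.15 without a site, and for let-7 0.18 and 0.16, and among 3′UTRs over 1424 bases 0.19 and 0.18 for miR-10 and 0.18 and 0.19 for let-7. Between 480 and 1424 bases they were 0.24 with and 0.20 without a miR-10 site, and 0.25 and 0.20 for let-7. Up to 480 bases both families had 0.10 with and 0.07 without a site. After quantile normalization all of the medians over all lengths lay between 0.01 and 0.02.

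Of the 12 genes with the smallest p and a higher mean, 11 had a matched 3′UTR, of which 3 held a miR-34 and miR-449 site, 2 a miR-10 site and 1 a let-7 site. Of the 12 with a lower mean, all matched and 0 held any of these. The higher genes had a median 3′UTR of 1053 bases (76 to 5011) and the lower genes one of 411 bases (33 to 1758), and sites go with length. The sites are shown from GRCm38, with the letters that match the seeds printed above in capitals.
Grk6: cccatcaaacCACTGCCcgagat
Mapk9: ctcctgaaccCACTGCCtaatgt
Ptms: ccttcaccctCACTGCCaccggt
Hnrnpu: agtttgagttACAGGGTtttttg
Stk24: ttttgtatttACAGGGTctgtca
Ercc2: tgccagtctcCTACCTCagtggg
The Grk6 site lies at chr13:55460456-55460478 (plus strand), that of Mapk9 at chr11:49884160-49884182 (plus), that of Ptms at chr6:124913991-124914013 (minus), that of Hnrnpu at chr1:178326412-178326434 (minus), that of Stk24 at chr14:121286704-121286726 (minus) and that of Ercc2 at chr7:19395616-19395638 (plus). A match of letters is a description and does not show that a miRNA binds there. Mapk9, a stress-activated kinase also known as JNK2, averaged 10.6 ± 6.28 TPM in cKO plus control RNA, 6.59 ± 5.69 TPM in cKO plus miRNA and 4.70 ± 3.81 TPM in control embryos. Grk6, a kinase of G protein-coupled receptors, averaged 4.72 ± 4.80 TPM in cKO plus control RNA, 2.62 ± 3.19 TPM in cKO plus miRNA and 1.46 ± 1.71 TPM in control embryos.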

How the data were processed

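Single embryos were sequenced from polyA RNA with Nextera XT after isolation on beads, per the labels. The authors deposited TPM per gene, and RSEM is named for embryos and Bowtie2 for small RNA in the submitters' processing notes, with versions not given in the sources used here. The build is mm10 per the labels. Sperm small RNA was deposited as raw counts, per the file headers, and was scaled here to RPM by each library's total. Depth of the embryo libraries is unknown, so p-values cannot weigh it.

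Genes with at least 1 TPM in 25% of the embryos compared were kept, and log2(TPM + 1) was tested with limma 3.58.1 in R 4.3.3 (trend and robust moderation, Benjamini-Hochberg adjustment), tested on simulated data first. A fold on this scale understates the change of low genes. The planned rule named called genes over 10 TPM, up to 4 members per list with the smallest p, and Dgcr8. As 0 genes were called, genes with the smallest p are given, and these and other members outside the rule were chosen after their values were seen. Members and lists were chosen with earlier results of these data known. Alternatives were other pseudocounts, filters, scalings and embryos left out.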

Additional observations from a re-analysis of the deposited data

Results flagged for a closer look

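Nr2c1 was the 1 gene for which the difference between cKO plus control RNA and control embryos itself differed between stages. Its 4-cell difference minus its morula difference was 1.48 on the log2(TPM+1) scale (limma adjusted p = 0.027, 95% interval 0.89 to 2.07), with 0.91 at the 4-cell stage and -0.57 in morulae. The adjusted p was 0.043 with a pseudocount of 0.1, 0.022 with set as a block and 0.057 with near-identical libraries counted once. It reached 1 TPM in 11 of 23 cKO plus control RNA and 2 of 30 control 4-cell embryos, too few for the 4-cell test alone.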

How the results depend on the processing

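The count of 0 genes called between cKO plus control RNA and control 4-cell embryos was 0 under each of the 17 alternatives run, and 0 to 0 with each embryo set left out. The smallest adjusted p over these was 0.066, with array weights. Whether the set numbers pair the samples is not stated and could not be read from the data. Same-set deviations had correlations of 0.087, -0.038, -0.066 and -0.102, while those of sets with unlike numbers ran from -0.282 to 0.293. With set as a replicate block 0 genes were called, with 526 higher and 139 lower at an unadjusted p under 0.05. In morulae 26 genes were called with a pseudocount of 0.1, 51 with set as a replicate block and 23 with near-identical libraries counted once. The difference between stages gave 0 called genes with near-identical libraries counted once, since the adjusted p of Nr2c1 was then 0.057, and the cause was not tested. The Stra8 comparison called 0 genes without the batch term, with 281 at an unadjusted p under 0.05, against 732 with it. Without 1 of its batches it called 0, with 747. Counting near-identical libraries once and leaving out that batch were chosen after seeing the data. Among 1572 results of 93 named 4-cell genes under the alternatives, 0 were called. Depth is unknown, so what it limits cannot be given.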
